A study of Mus musculus with 72 samples.

Results

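Reporter output was read along mouse chromosome 19, where 489 of the 17857 integrations listed in the deposited table lie. Membership was set by the listed chromosome alone, in all 6 cell pools, so no measured value chose the members. The pools mPGK-A to mPGK-F contributed 95, 76, 85, 75, 73 and 85 integrations. The assay was TRIP, in which identical reporter genes, each with its own random DNA barcode, are scattered over the genome and their barcodes are counted in RNA and in genomic DNA. All pools were EBRTcH3 mouse embryonic stem cells, which express the tetracycline-controlled transactivator from the Rosa26 locus, kept with leukemia inhibitory factor, the MEK inhibitor PD0325901, the GSK-3 inhibitor CHIR99021 and medium conditioned by BRL cells. Each pool had received barcoded piggyBac plasmids with the mPGK promoter and a plasmid for the mPB transposase by lipofection, came from cells sorted for low eGFP and grown for 5 days, was expanded for 7 days, and was split into 2 cultures grown apart for 7 more days. These cultures are technical replicates, and cells of the other sorted fractions were not analysed here.

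The mouse phosphoglycerate kinase promoter is a housekeeping promoter, and the same copy of it is known to give different output at different places in the genome, a position effect set by the surrounding chromatin. The piggyBac transposase inserts its cargo at TTAA sites. Chromosome 19 is the smallest autosome of the mouse, and like the other mouse autosomes it has its centromere at one end, where the listed positions begin.

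A reporter is known by its barcode, a tag read from RNA and DNA and tied to a position by inverse PCR. Of the 489 barcodes, 485 were 16 bases long and the others ran from 15 to 17 bases. The following 6 barcodes are shown because they mark the steepest of the edges between stretches of weak and strong output, in order of position, the first from the weak side and the others from the strong side.
mPGK-C at chr19:22990669, minus strand: gatgaatcagtgctac
mPGK-C at chr19:23081971, plus strand: acactcacaccgatct
mPGK-A at chr19:23208034, minus strand: attccactgtatatac
mPGK-B at chr19:23211249, minus strand: aatataaaacgtttga
mPGK-A at chr19:23226588, minus strand: tcgcaacaagcttgcc
mPGK-C at chr19:23238522, minus strand: atgtcgctcgacttgt
The next pair is shown because a single insertion site was hit in separate pools, on opposite strands, at the rim of the longest gap.
mPGK-C at chr19:48341644, minus strand: tagaatcggaatgaga
mPGK-D at chr19:48341645, plus strand: cccccctggaattaat
The last pair marks the strongest reporter and the weakest well-counted one.
mPGK-E at chr19:7340500, plus strand: gagcgcagaatccagg
mPGK-B at chr19:27912342, minus strand: tgcactttttcactct
Barcodes carry no information on the site itself, and over the 489 reporters the GC content of the barcode and the output had a Pearson correlation of -0.0012, given as a description. Positions are those of the mouse build mm9, and the genes at these sites were not analysed here.

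Output is the log2 ratio of a barcode's share of RNA reads to its share of DNA reads in its pool, averaged over both replicates, with 0.5 reads added to each RNA count and the median over all barcodes of the pool set to 0. A value of 0 is thus a reporter of typical output for its pool. A low ratio can mean less RNA in every cell or fewer cells with an active reporter, which cannot be told apart in bulk. Summed over all listed barcodes, a pool and replicate held 2880244 to 3508366 RNA reads and 3386477 to 3693449 DNA reads. For the median chromosome 19 reporter, 1625 DNA reads were counted over both replicates, and 567 RNA reads.

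Identical reporters on this one chromosome covered a wide range of output. The 5th and 95th percentiles were -3.82 and 3.07, a 118-fold range, and the middle of the distribution, between the quartiles, spanned 6.24-fold. The SD between reporters was 2.20 on the log2 scale, against 2.43 on all other chromosomes, and the error SD of a replicate was 0.70. The replicate error was 0.41 among the 339 reporters whose RNA count reached 100 reads in both replicates and 1.10 among the other 150, so weak reporters carry the less precise values. Within the pools, the replicates ranked the chromosome 19 reporters with a Spearman rho of 0.903 to 0.951, across reporters. More than 16-fold below the pool median lay 22 reporters, or 4.50%, where the other chromosomes had 6.54%, and 9 reporters, or 1.84%, lay more than 16-fold above it, beside 2.49% elsewhere. These shares were not tested against each other.

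As a whole the chromosome did not stand apart. The mean of its reporters minus that of the pool's reporters elsewhere was 0.07 in mPGK-A, 0.21 in mPGK-B, 0.35 in mPGK-C, -0.38 in mPGK-D, 0.04 in mPGK-E and -0.0021 in mPGK-F. The mean difference was 0.05 ± 0.25 (SD, n = 6 pools), a 1.03-fold difference that was smaller than the spread between pools (exact sign-flip permutation test over pools, two-sided, p = 0.625, adjusted p = 0.625 over 4 comparisons, higher in 4 of 6 pools; 0.03125 is the smallest p that 6 pools allow). Without mPGK-C the difference was -0.013, so its sign rests on that pool.

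Most single reporters departed from the typical ratio of their pool. In edgeR's quasi-likelihood test of RNA against DNA counts, adjusted over all 17857 barcodes, 175 of the 489 reporters (35.8%) were higher at a threshold of 0.05, where the background over all barcodes was 36.9%. Lower calls numbered 150 (30.7%), beside a background of 33.7%. Both shares lie near the background. With edgeR's TMM scaling and no shift to the pool median, 145 were higher and 165 lower, so the larger of the counts changed sides with the scaling. The replicates of this test are cultures split from a shared pool, so its p-values take in the spread between cultures and nothing beyond it.

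Each pool carried calls in both directions, and mPGK-D was the one with the fewest higher calls. There 18 of 75 reporters (24.0%) were higher and 28 (37.3%) lower, whereas in the other 5 pools higher calls made up 35.6% to 40.8% and lower calls 25.9% to 31.8%. The pool mean on chromosome 19 was -0.58 in mPGK-D and ran from -0.18 to 0.12 in the others. This difference between pools was not tested. Each pool had its own edgeR fit, and the shares of calls over all barcodes of each pool are not given here. Whether the low share of higher calls in mPGK-D is particular to chromosome 19 is thus not shown.

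Integrations covered the chromosome densely. They ran from chr19:3355278 to chr19:60985295, a span of 57.6 Mb, with 8.49 integrations per Mb, the third highest of 21 chromosomes, and a median spacing of 63.0 kb. In each pool the density was higher here than over all other chromosomes together, 1.41 ± 0.15 against 1.16 ± 0.12 per Mb (SD, n = 6 pools). The others include the sparsely hit X, with 2.18 integrations per Mb of all pools over 159 Mb. In mPGK-E the margin was small, 1.27 against 1.24 per Mb. Pools were not compared with the other autosomes alone, so a higher density in each pool is not shown against those. On chromosome 19 the densities ran from 1.27 per Mb in mPGK-E to 1.65 per Mb in mPGK-A. The strands were hit about evenly, with 228 plus and 261 minus insertions.

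The chromosome was divided into segments of similar output by least squares over all 489 reporters in order of position. Since the segments were drawn from the values, they are a description without a test. There were 6 of them, and they alternated between stronger and weaker stretches. Segment 1 (chr19:3355278-14964758, 11.6 Mb) held 99 reporters with a mean of 0.72 ± 1.88 (SD over reporters). Segment 2 (chr19:15045697-22990669, 7.94 Mb) held 37 reporters with a mean of -1.43 ± 2.24. Segment 3 was a short peak, chr19:23081971-23238522, with 5 reporters in 157 kb and a mean of 3.42 ± 1.71.

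The centromere-near segment thus had a mean above 0, followed by a weak stretch that ended at a sharp peak. Output within segment 1 was uneven. In the 2 Mb windows tested below, chr19:6000001-8000000 and chr19:8000001-10000000 were 1.59 and 2.57 above the rest of the genome. The windows nearer the end, chr19:2000001-4000000 and chr19:4000001-6000000, were at 0.24 and 0.47 and were not called, nor was chr19:10000001-12000000 at 0.49. Segment 4 (chr19:23301530-43989867, 20.7 Mb) held 202 reporters with a mean of -0.24 ± 2.15, near the typical output. Segment 5 (chr19:44348347-46915193, 2.57 Mb) was a compact strong domain of 41 reporters with a mean of 1.22 ± 1.22. Segment 6 (chr19:46926317-60985295, 14.1 Mb) reached to the far end, with 105 reporters and a mean of -0.97 ± 2.15.

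**Figure D1:**
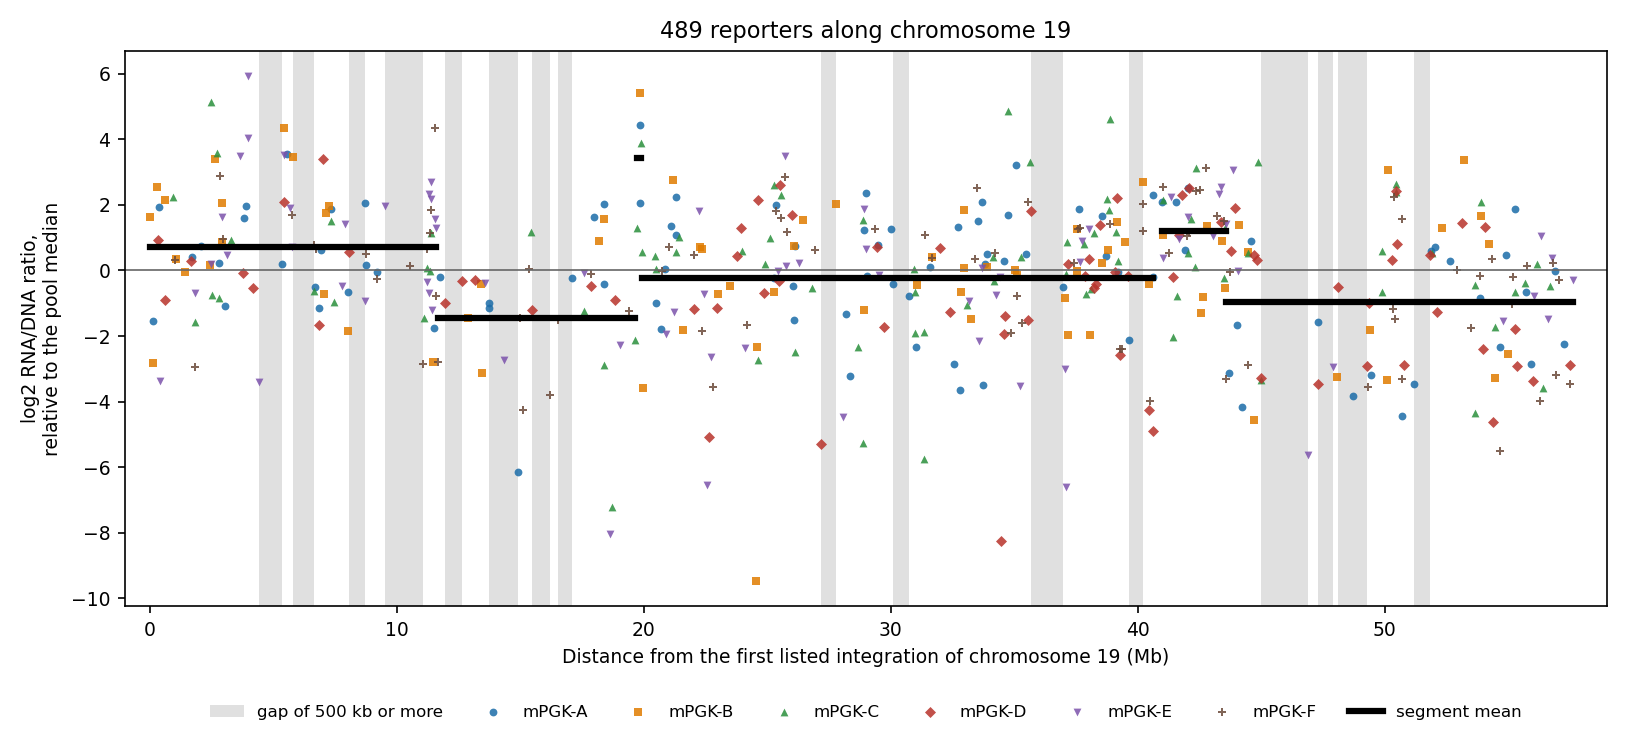
Output of the 489 chromosome 19 reporters (log2 RNA to DNA ratio relative to the pool median, one point per integration, symbol and colour by pool) against distance in Mb from the first listed integration. Black bars are the means of the 6 segments, from -1.43 to 3.42, and grey bands are the 19 gaps of at least 500 kb without any integration.

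Calls of single reporters, which rest on the same counts as the segments, differed between them, and are set here beside the background of 36.9% higher and 33.7% lower over all barcodes. Of the 41 reporters in segment 5, 30 (73.2%) were called higher and 4 (9.76%) lower, and in segment 1 it was 45 (45.5%) higher and 20 (20.2%) lower of 99. In segment 2, 4 (10.8%) were called higher and 19 (51.4%) lower of 37, and in segment 6, 25 (23.8%) higher and 49 (46.7%) lower of 105. Segment 4 lay near the background, with 66 (32.7%) higher, 58 (28.7%) lower and 78 without a call. Every segment with over 5 reporters held calls of both directions, so strong reporters occurred in weak segments and the reverse.

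In 4 segments the means of all pools lay on the same side of 0. The segments were drawn from the values of these same pools, which favours such sharing. The pool means in segment 1 were 0.45, 0.97, 0.60, 0.46, 1.01 and 0.57 from mPGK-A to mPGK-F, all above 0. In segment 2 they were -0.69, -0.50, -2.45, -0.70, -2.70 and -1.89, all below 0. The strong segment 5 gave 1.83, 0.12, 0.64, 1.44, 1.57 and 1.83, all above 0, with mPGK-B the lowest over its 6 reporters. In segment 6 the means were -1.47, -0.51, -0.19, -1.01, -0.81 and -1.40, all below 0. Over all barcodes of the genome, though, each pool also had a mean below 0, from -0.22 in mPGK-C to -0.15 in mPGK-A. In segment 6, mPGK-C was thus not below its mean over the genome. Segment 4 was split, with 3 pools above and 3 below 0, and segment 3 had reporters of mPGK-A, mPGK-B and mPGK-C only.

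**Figure D2:**
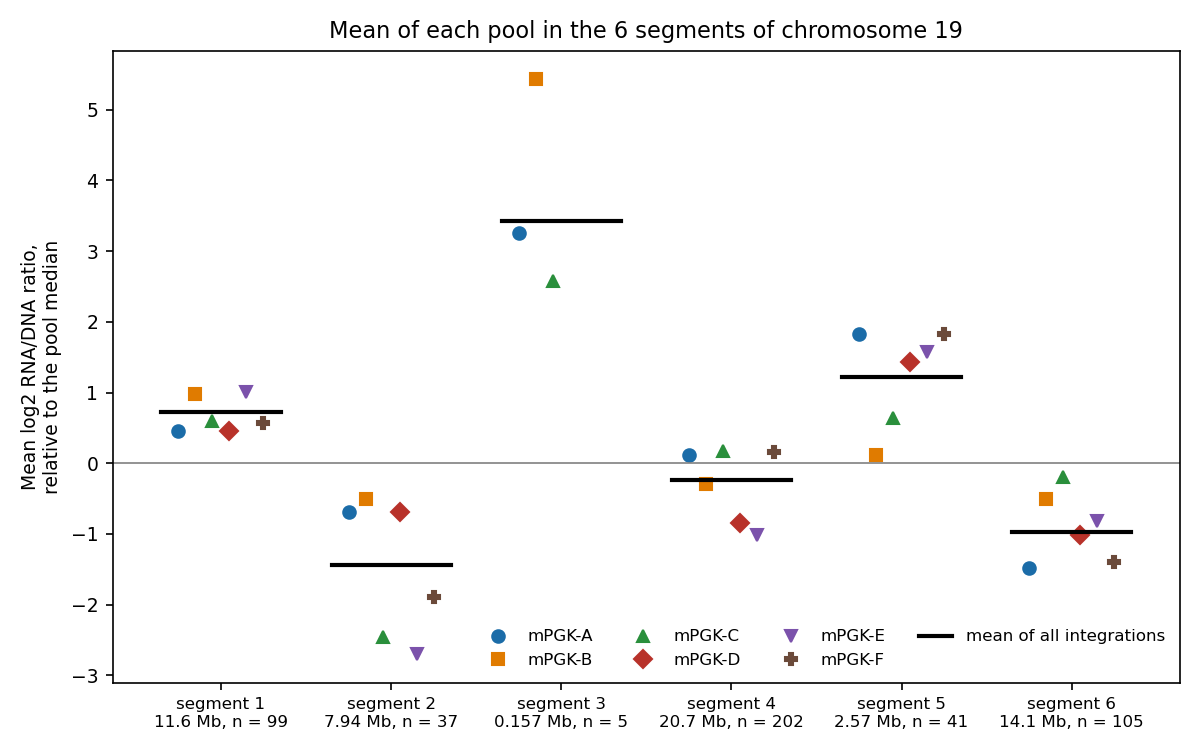
Mean log2 RNA to DNA ratio of each pool (symbols) and of all integrations (black bars) in the 6 segments, with segment length and number of integrations under the axis. In segments 1 and 5 every pool lies above 0, and in segments 2 and 6 every pool lies below it. Pool means over the whole genome are also below 0, from -0.22 to -0.15, and mPGK-C in segment 6 is not below its own. The segments were drawn from the values of these same pools.

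The segments also served to look at reporters that had no part in drawing them. For each pool in turn, the segments were drawn from the other 5 pools. Segments with a mean above that of all chromosome 19 reporters of these 5 pools counted as strong, the rest as weak. The reporters of the left-out pool were averaged over the strong and over the weak segments. The strong minus the weak segments gave 0.64 for mPGK-A, 1.01 for mPGK-B, 0.68 for mPGK-C, 1.00 for mPGK-D, 0.54 for mPGK-E and 0.69 for mPGK-F. The left-out pool was higher in the strong segments in each of the 6 cases. What counted as strong differed between cases, though. Without mPGK-E it was all of chr19:3355278-46887284, which takes in segment 2, and only 11 left-out reporters fell in the weak part. Without mPGK-F only chr19:3355278-14740945 was strong, with 14 left-out reporters, and segment 5 counted as weak. The 6 cases thus do not bear on each of the 6 segments. The number of segments was not stable either, with 2 to 6 drawn from 5 pools.

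The edges differed in how well they held. The edge from segment 1 to segment 2, between chr19:14964758 and chr19:15045697, recurred within 250 kb in 5 of the 6 segmentations that left out a pool, and was missing without mPGK-E. The edge from segment 5 to segment 6 recurred in 4, missing without mPGK-A and without mPGK-F. It was also the narrowest, with 11.1 kb between chr19:46915193 (1.43, mPGK-E) and chr19:46926317 (-3.32, mPGK-F). The edge into segment 5, placed in a 358 kb interval without reporters, recurred in 2, being kept without mPGK-B and without mPGK-C. Both edges of the short segment 3 recurred in 1, without mPGK-D. They were lost without mPGK-E and without mPGK-F too, although these have no reporter in the segment. Over all 14 alternative settings, pools left out included, the 5 edges recurred in 10, 4, 4, 6 and 8 in order of position. The edge between segments 1 and 2 was also lost with 5 RNA reads added in place of 0.5, with a penalty of 5 and with ranks. Both edges of segment 5 were lost without replicate 1, when the 10% of integrations with the fewest DNA reads were dropped, and with penalties of 2 and of 5.

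Segment 3 had the highest mean of the 6 segments and bordered the steepest of the 5 edges. The 5 reporters before the edge, from chr19:22060694 on, averaged -2.75 and the 5 after it 3.42. The nearest reporters on the 2 sides were 91.3 kb apart. The reporter at chr19:22060694, at -7.20, had no RNA read, so its value was set by the 0.5 reads added. The others before the edge lay between -2.29 and -0.91. On the weak side, the last reporter at chr19:22990669 (mPGK-C) had 443 and 493 RNA reads for 5369 and 5829 DNA reads in replicates 1 and 2, log2 ratios of -2.19 and -2.04. On the strong side, the reporter at chr19:23081971, of the same pool, had 481 and 635 RNA reads for 723 and 540 DNA reads, log2 ratios of 0.82 and 1.76. Since these neighbours share a pool, their difference was measured within the same libraries.

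The reporters inside the peak were stronger still. At chr19:23208034 (mPGK-A) the log2 ratios were 4.29 and 4.60, from 12542 and 15669 RNA reads. At chr19:23211249 (mPGK-B), 3.21 kb on, they were 5.37 and 5.48, with 4320 and 4405 RNA reads for only 301 and 251 DNA reads. At chr19:23238522 (mPGK-C) they were 3.64 and 4.10. These values came from 3 pools, and all 5 reporters of the peak were called higher.

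The peak fell off quickly on its far side. The reporter at chr19:23301530 (mPGK-C) had 0.61 and 0.51 and was not called, and that at chr19:23325889 (mPGK-B) had -3.81 and -3.33 and was called lower. About 1 Mb before the edge lay a pair of silent reporters, at chr19:22010596 (mPGK-E) and chr19:22060694 (mPGK-C), 50.1 kb apart, without any RNA read in either replicate. If 3 RNA reads in all are taken as the floor that a count of 0 allows, they were at least 99.3-fold and 49.8-fold lower than the median of their pool.

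**Figure D3:**
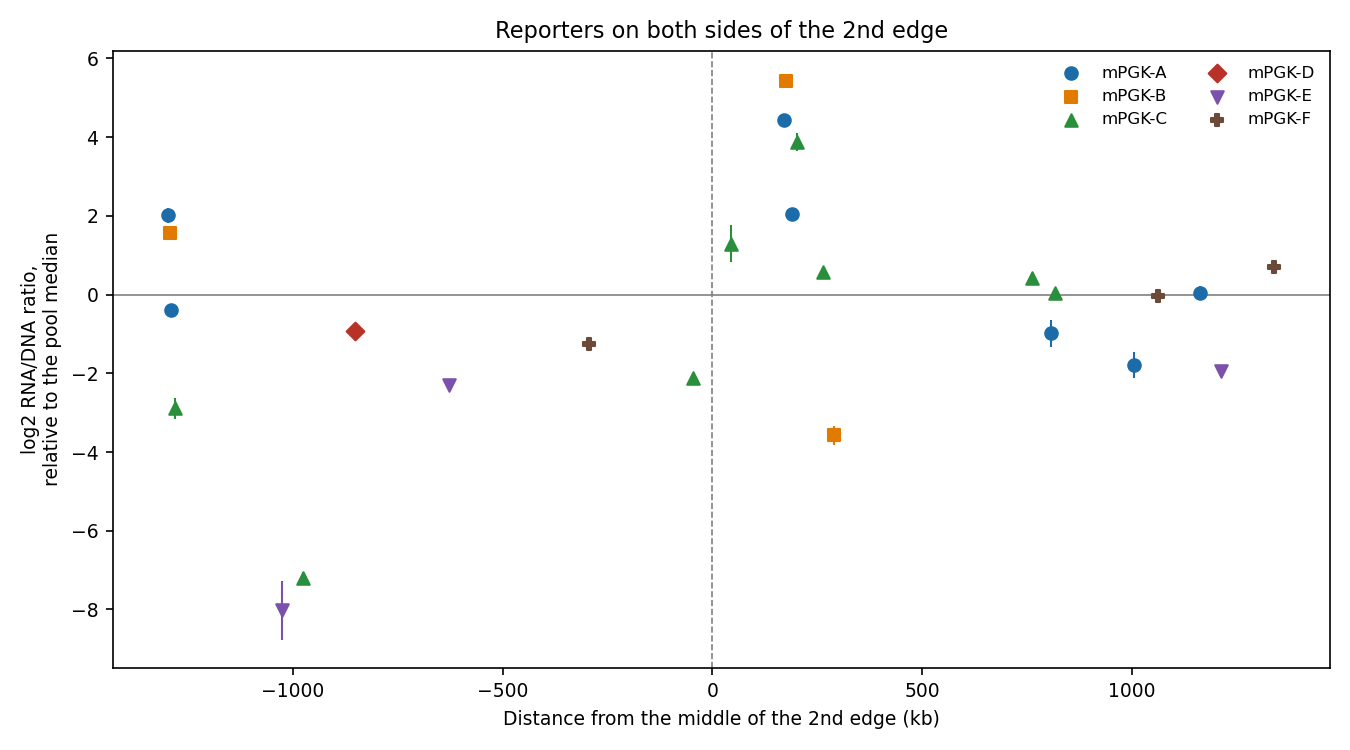
Reporters on both sides of the middle of the edge between segments 2 and 3 (dashed line), as log2 RNA to DNA ratio relative to the pool median against distance in kb, with symbols for the mean of the replicates by pool and vertical lines for the range of the 2 replicates. The 5 reporters just right of the edge lie between 1.29 and 5.43, and the reporter just left of it lies at -2.12.

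Fixed windows of 2 Mb give a test that does not depend on where the segments were drawn. Each pool's mean in a window was compared with the mean of that pool's other integrations genome-wide, with limma over the 1073 windows that held integrations of at least 4 pools. Of the 30 chromosome 19 windows, 28 could be tested. Higher windows numbered 3 of 28, where the background over the genome was 8.29%, and lower windows 2, beside a background of 8.95%. At an unadjusted p under 0.05 there were 4 in each direction. These counts are near what the background gives for 28 windows.

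A pair of neighbouring higher windows lay within segment 1. The window chr19:8000001-10000000 was the highest of the chromosome, 2.57 ± 0.65 (SE) above the rest, or 5.94-fold (limma, adjusted p = 0.0087), with 9 reporters. Its difference was 2.02 in mPGK-A, 4.07 in mPGK-B, 2.30 in mPGK-D, 2.25 in mPGK-E and 1.89 in mPGK-F, above 0 in all 5 pools with reporters there. All 9 reporters were above the median of their pool. Without mPGK-B the window was 2.14 above the rest and no longer passed (adjusted p = 0.0503).

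The reporters of that window show a tight group and a gap on each side. From chr19:8781751 to chr19:8790781, reporters of mPGK-E, mPGK-B and mPGK-D had values of 3.54, 4.35 and 2.09. The next were 3.55 at chr19:8898014 (mPGK-A), 1.92 at chr19:9028720 (mPGK-E), 0.72 at chr19:9116049 (mPGK-E), 1.71 at chr19:9135480 (mPGK-F) and 3.47 at chr19:9156722 (mPGK-B). The first, at chr19:8694884 (mPGK-A), was at 0.20 and was not called. With the reporter at chr19:10013286 (0.78, mPGK-F) these made an unbroken run of 10 reporters above their pool medians over 1.32 Mb, and 1.46 kb beyond that reporter one of mPGK-C was at -0.62 and called lower.

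The window before it, chr19:6000001-8000000, was 1.59 ± 0.44 above the rest (adjusted p = 0.0156). It held 20 reporters, of which 12 were called higher and 2 lower. The pools gave 0.83, 2.27, 1.45, -0.09, 2.22 and 2.10 from mPGK-A to mPGK-F, so only mPGK-D, with its 2 reporters at -0.07 and -0.53, was not higher. Without mPGK-E the difference was 1.32 (adjusted p = 0.0971), and without weights for the number of integrations it was 1.46 (adjusted p = 0.0759), neither passing.

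That window held the strongest reporter of the chromosome. At chr19:7340500 (mPGK-E), 26571 and 28077 RNA reads were counted for 1299 and 1308 DNA reads, log2 ratios of 5.93 and 5.94, or 61.1-fold above the pool median. The nearest reporter, of the same pool and 7.74 kb away, was at 4.04. In contrast, the last reporter of the window, at chr19:7779704 and again of mPGK-E, was at -3.39 and called lower, and the 915 kb behind it held no integration.

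The third higher window, chr19:44000001-46000000, overlapped segment 5. It was 1.41 ± 0.37 above the rest, or 2.66-fold (adjusted p = 0.011), with 27 reporters, of which 19 were called higher. The pools gave 1.98, 0.06, 0.89, 1.64, 1.50 and 1.89 from mPGK-A to mPGK-F, all above 0 but mPGK-B close to it. The call was lost without mPGK-F (1.28, adjusted p = 0.0531) and without weights (1.32, adjusted p = 0.0878).

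Inside this domain lay the run of strong reporters with the most members. From chr19:45033752 to chr19:45867013, 15 consecutive reporters of 5 pools lay above the median of their pool, 13 of them called higher, with a mean of 1.60 ± 0.90 (SD). They ran from 0.12 at chr19:45674844 to 3.13 at chr19:45730106, both of mPGK-C and 55.3 kb apart. The reporter 335 bases beyond the latter, of mPGK-F, was at 2.43. After a break the domain went on with 8 reporters from chr19:46133109 to chr19:46764308, all called higher, with values of 0.90 to 3.12.

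The lowest window of the chromosome was chr19:50000001-52000000. It was -2.71 ± 0.83 relative to the rest, 6.55-fold lower (limma, adjusted p = 0.0275), from 6 reporters in 4 pools. The pools gave -1.43 in mPGK-A, -3.08 in mPGK-B, -1.78 in mPGK-D and -4.10 in mPGK-E, all below 0. When the 10% of integrations with the fewest DNA reads were dropped, the window was at -2.14 and no longer passed (adjusted p = 0.0953). Leaving out any of these 4 pools leaves too few pools for a test.

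This window was part of the weak run that spanned the most sequence, second to another by number of reporters. From chr19:48341644 to chr19:52820992, 4.48 Mb, all 14 reporters were below the median of their pool and 12 were called lower, with a mean of -2.87 ± 1.30 (SD). Reporters of all 6 pools took part, with pool means from -4.29 in mPGK-E to -2.23 in mPGK-D. Their density was 3.13 per Mb, against 8.49 per Mb over the chromosome. Most of the span held no integration, so its output was not read there. The gap from chr19:48341645 to chr19:50258559 took 1.92 Mb, and later gaps took 591, 635 and 567 kb. The values ran from -5.62 at chr19:50258559 (mPGK-E, 0 and 4 RNA reads for 223 and 207 DNA reads) to -0.51 at chr19:51449108 (mPGK-D, 153 and 161 RNA reads for 584 and 900 DNA reads).

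The stretch opened with a site that was hit in separate pools. At chr19:48341644 and chr19:48341645, 1 base apart on opposite strands, the reporter of mPGK-C had 4 and 5 RNA reads for 140 and 136 DNA reads, and that of mPGK-D had 56 and 34 RNA reads for 1342 and 1444 DNA reads. Their values of -3.33 and -3.28 differed by less than the replicate error. The insertions, in different pools and orientations, were thus both low.

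The second lower window, chr19:58000001-60000000, was near the far end of the chromosome. It was -1.27 ± 0.43 relative to the rest, 2.41-fold lower (adjusted p = 0.042), with 22 reporters, of which 12 were called lower and 3 higher. The pools gave -0.56, -2.40, -0.89, -2.48, -0.49 and -1.94, all below 0. This call was the least firm. It was lost without mPGK-B (-1.21, adjusted p = 0.0676), mPGK-C (-1.35, 0.0577), mPGK-D (-1.07, 0.119), mPGK-E (-1.44, 0.0519) or mPGK-F (-1.07, 0.165), without replicate 1 (-1.10, 0.0795) and without weights (-1.46, 0.0759).

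**Figure D4:**
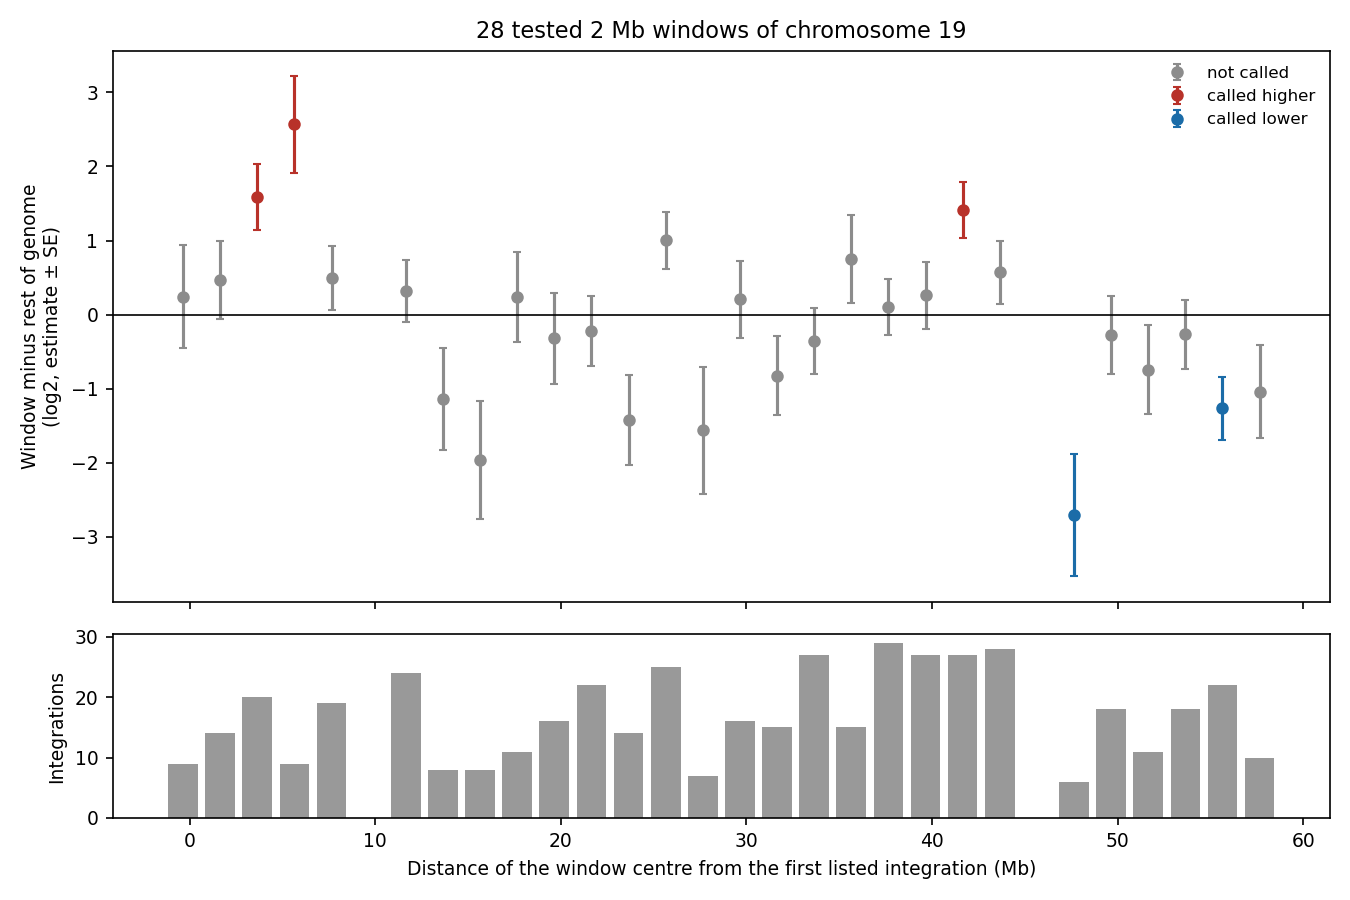
Difference between each of the 28 tested 2 Mb windows of chromosome 19 and the rest of the genome (limma estimate ± SE, log2 scale, red called higher and blue called lower), above the number of integrations per window, against distance in Mb. The 3 higher windows lie at 1.41 to 2.57 and the 2 lower windows at -2.71 and -1.27.

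Windows next in rank did not pass the test. On the high side, chr19:28000001-30000000 was at 1.00 ± 0.39 (adjusted p = 0.0751), above 0 in 6 of 6 pools, and chr19:38000001-40000000 at 0.75 ± 0.59 (adjusted p = 0.405). On the low side, chr19:18000001-20000000 was at -1.96 ± 0.80 (adjusted p = 0.0923), chr19:30000001-32000000 at -1.56 ± 0.86 (adjusted p = 0.226) and chr19:26000001-28000000 at -1.42 ± 0.61 (adjusted p = 0.113). The latter was called lower without mPGK-D, at -2.35 (adjusted p = 0.0131).

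The remaining long runs lay within segments 2 and 4. In segment 2, 15 reporters of 5 pools from chr19:15045697 to chr19:18475707 were all below the median of their pool, with a mean of -1.78 ± 1.73 (SD) and 9 called lower. The run began right at the edge from segment 1, and its reporters were sparse, at 4.37 per Mb over 3.43 Mb. In segment 4, 9 reporters of 4 pools from chr19:25737088 to chr19:26833431 were all below, with a mean of -2.52 ± 2.15 and 6 called lower. In the same segment, 9 reporters of 5 pools from chr19:41829575 to chr19:42223280 were all above, with a mean of 1.60 ± 1.32 and 6 called higher. The strong run ended with 4.63 at chr19:42218475 (mPGK-C) and 1.42 at chr19:42223280 (mPGK-F), 4.80 kb apart.

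Long runs were the exception. The 489 reporters formed 188 runs with a mean length of 2.60, beside 2.64 over the whole series, and 73 runs were single reporters. Runs of at least 8 reporters numbered 10 of the 188, beside 379 of 6776 over the whole series, so their share was much the same. A reporter's side of the median thus usually changed within a few integrations.

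Gaps of at least 500 kb without any integration numbered 19 and held 25.5% of the span. The longest, 1.92 Mb from chr19:48341645 to chr19:50258559, had weak reporters on both rims, -3.28 (mPGK-D) and -5.62 (mPGK-E). The second, 1.32 Mb from chr19:39029150 to chr19:40352283, ran between 1.83 (mPGK-D) and -0.51 (mPGK-A). The third, 1.01 Mb from chr19:12868484 to chr19:13877982, ran between 1.96 (mPGK-E) and 0.14 (mPGK-F). The fourth and the fifth enclosed the strong group of chr19:8694884-9156722, with 915 kb from chr19:7779704 to chr19:8694884 (-3.39 to 0.20) and 857 kb from chr19:9156722 to chr19:10013286 (3.47 to 0.78).

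Gaps thus bordered strong as well as weak reporters. They made up 40.3% of the length of segment 2, 34.5% of segment 1, 31.0% of segment 6 and 15.2% of segment 4, and segments 3 and 5 held none. Reporters within 100 kb of such a gap were compared with all others of the chromosome, 69 against 420. The difference was -0.47 ± 1.06 (SD, n = 6 pools), within the spread between pools (exact sign-flip permutation test, two-sided, p = 0.344, adjusted p = 0.458, higher in 2 of 6 pools). The pools ranged from -2.02 in mPGK-E to 1.00 in mPGK-B.

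The number of integrations in a window and its output went together loosely across the 30 windows. The number of integrations in a window and its mean value had a Pearson correlation of 0.40 and a Spearman correlation of 0.44, given as a description, since windows share the pools and their depth. The 10 windows with at least 20 integrations had a mean of 0.16, and the 8 windows with under 10 had a mean of -0.80. Listed positions begin and end inside the windows chr19:2000001-4000000 and chr19:60000001-62000000. Their counts, 9 and 10, thus come from only part of 2 Mb, and the former is among the 8. The strongest window, with 9 integrations, was among the thin ones, so the relation had a clear exception. Over reporters, the value and the DNA count had a Spearman correlation of -0.0091.

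Position from end to end and orientation gave smaller differences. Reporters before the midpoint of the listed span, chr19:32170286, were 0.27 ± 0.24 (SD, n = 6 pools) higher than those beyond it, with 215 and 274 reporters, in 5 of 6 pools (exact sign-flip permutation test, two-sided, p = 0.0625, adjusted p = 0.188). With medians in place of means the difference was 0.06 (p = 0.875 by the same exact test). Plus-strand reporters were -0.41 ± 0.47 relative to minus-strand reporters, 228 against 261, and were higher in 1 of 6 pools (exact sign-flip permutation test, two-sided, p = 0.0938, adjusted p = 0.188). The pools gave -0.32, 0.29, -0.27, -0.53, -0.45 and -1.17 from mPGK-A to mPGK-F. Neither difference passed the threshold, and the design allowed no p below 0.03125.

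The likeness of reporters fell with the distance between them. For pairs within 5 kb the correlation of their values was 0.50 over 54 pairs, and 0.55 over the 45 pairs from different pools, which share no library. Between 5 and 20 kb it was 0.24, between 20 and 50 kb it was 0.25, and between 50 and 100 kb 0.21. It was 0.13 up to 200 kb and 0.08 up to 500 kb, and beyond 500 kb it stayed within 0.04 of 0. The pairs of the other chromosomes gave 0.43 within 5 kb, 0.37 between 5 and 20 kb, 0.29 between 20 and 50 kb and 0.13 between 200 and 500 kb. Pairs share reporters, so these correlations are descriptions without a test, and the difference between chromosome 19 and the others was not tested.

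**Figure D5:**
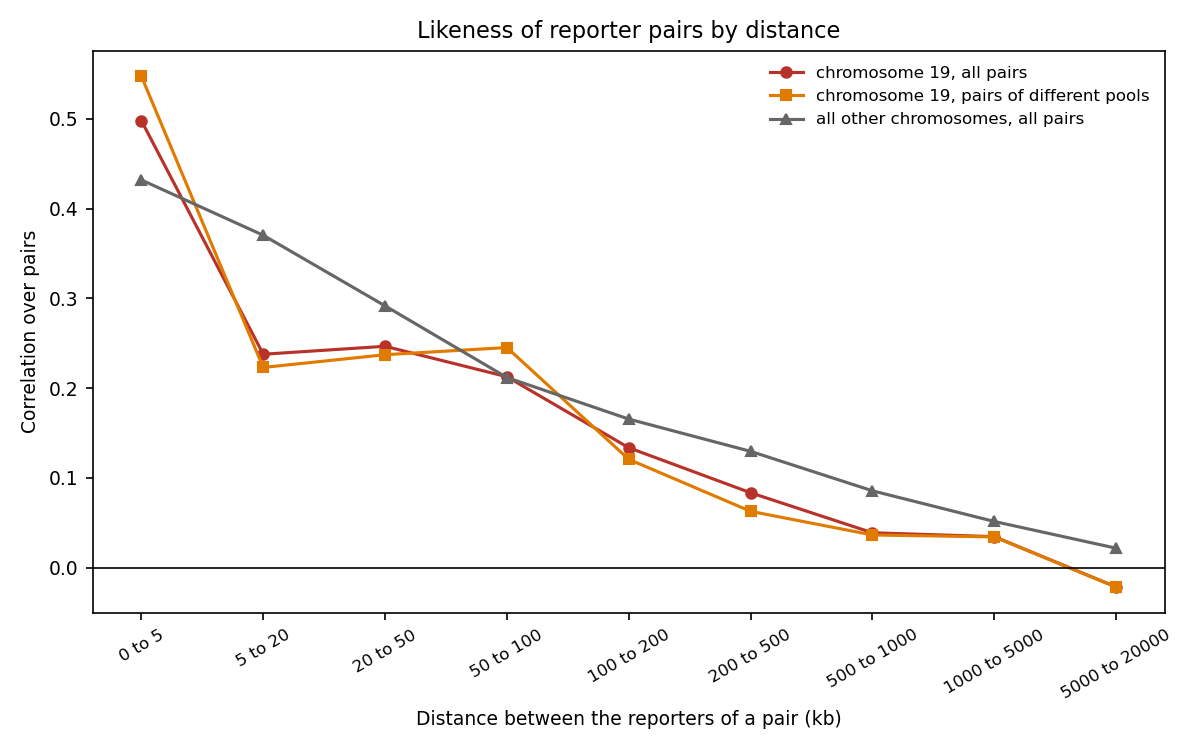
Correlation of the log2 RNA to DNA ratios of reporter pairs by the distance between them in kb, for all chromosome 19 pairs (circles), chromosome 19 pairs from different pools (squares) and all pairs on the other chromosomes (triangles). On chromosome 19 the correlation is 0.50 within 5 kb and 0.24 between 5 and 20 kb.

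Even adjacent reporters could differ strongly. Of 51 consecutive pairs within 5 kb, 33 lay on the same side of the pool median, the median difference was 2.39-fold, and 4 pairs were more than 16-fold apart. The sharpest contrast was a trio within segment 6. At chr19:54045492 (mPGK-F, plus strand) the value was -3.31, from 37 and 75 RNA reads for 1361 and 1396 DNA reads. At chr19:54046460 (mPGK-F, minus strand), 968 bases on, it was 1.58, from 140 and 68 RNA reads for 66 and 112 DNA reads. At chr19:54047518 (mPGK-A, plus strand), 1058 bases further, it was -4.43, from 0 and 5 RNA reads for 71 and 154 DNA reads. The middle reporter was not called and its replicates were at 2.46 and 0.69, so the contrast rests partly on reporters with few reads.

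The strongest and weakest single reporters were spread over the chromosome. After chr19:7340500 and chr19:23211249, the strongest were chr19:5845282 (5.15, mPGK-C), chr19:38106129 (4.88, mPGK-C) and chr19:42218475 (4.63, mPGK-C), at 35.4-fold, 29.4-fold and 24.7-fold above the pool median. The reporter at chr19:5845282 stood alone within 100 kb: the 3 others there, from 3 pools, lay between -0.74 and 0.20. Its counts were 43800 and 43498 RNA reads for 2952 and 3914 DNA reads. Beyond 100 kb, the reporters at chr19:6010309 (mPGK-B) and chr19:6063267 (mPGK-C) were at 3.39 and 3.59, also in segment 1. High output was thus found inside strong groups and, at chr19:5845282, beside near neighbours of typical output.

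Among reporters with at least the median DNA count, the weakest was chr19:27912342 (mPGK-B), with 8 and 0 RNA reads for 3675 and 4320 DNA reads. Its value of -9.48 averages -7.23 and -11.73, the latter set by the 0.5 reads added to a count of 0. The next were chr19:40449481 (-6.61, mPGK-E, 2 and 7 RNA reads), chr19:32231593 (-5.28, mPGK-C), chr19:25999043 (-5.07, mPGK-D) and chr19:43989867 (-4.90, mPGK-D). Around chr19:40449481, 7 reporters of 5 pools within 100 kb lay between -3.01 and 0.88, so none there was as weak. At chr19:25999043 the nearest reporter, 75.1 kb away in mPGK-E, was weak too, with 0 and 11 RNA reads. Its value of -6.54 averages -8.80 and -4.29, the former set by the 0.5 reads added. Reporters without any RNA read numbered 4, namely the pair near the steepest edge, chr19:37814591 (mPGK-D) and chr19:18278527 (mPGK-A). With the same floor, the latter were at least 103-fold and 24-fold lower than the median of their pool.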

How the data were processed

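Per the labels, barcodes were amplified from reverse-transcribed RNA (expression) and genomic DNA (normalization) of 2 cultures per pool, and positions came from inverse PCR after DpnII digestion, each in 2 PCRs, 72 libraries in all. The deposited table gives the authors' raw read counts per barcode, pool and replicate. The submitters' processing notes name Bowtie2 2.0 and mm9. Not given in the sources used here are how PCRs were combined, which barcodes were kept and the base (0 or 1) from which positions are counted.

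Log2 ratios used a pseudocount of 0.5 RNA reads and were centred on the pool median. RNA and DNA counts were compared within pools with edgeR 4.0.16 (quasi-likelihood test, TMM scaling shifted to a median ratio of 0, Benjamini-Hochberg over all barcodes, threshold 0.05), with DESeq2 1.42.0 as an alternative. Windows were tested with limma 3.58.1 over pools, weighted by the number of integrations, with Benjamini-Hochberg adjustment over all windows. Segments needed at least 5 integrations, with a penalty of 3 times the noise variance times the natural log of the number of integrations. The rest used Python 3.11.15 with numpy 2.4.6, pandas 2.3.3 and scipy 1.17.1, and R was 4.3.3.

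The labels pair RNA and DNA of a replicate number through their shared culture. Their deviations correlated at -0.0015 to 0.056 across barcodes, and the fit with a replicate block called 168 chromosome 19 reporters higher and 146 lower. Of the 489 barcodes, 17 are listed again elsewhere in the table and were kept.

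Named regions were every called window, the 5 highest and 5 lowest windows, all segments, the 5 longest gaps, the 3 longest runs on each side, and the 5 highest and 5 lowest reporters, the latter among those with at least the median DNA count. The reporters around the edges and gaps, the run of 8 reporters in the strong domain, the reporters without RNA reads and the close trio were chosen after their values were seen. The chromosome, the tests and these rules were chosen with earlier results of these data known.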

Additional observations from a re-analysis of the deposited data

Results flagged for a closer look

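In the window chr19:8000001-10000000, the highest of the chromosome, the difference from the rest of the genome was 4.07 in mPGK-B, far from the other 4 pools, which lay between 1.89 and 2.30. The gap to the nearest pool was 0.81 of the range over 5 pools. Without mPGK-B the window was still 2.14 above the rest but did not pass (limma, adjusted p = 0.0503). In all, 14 sets of pool values were examined for such a distance, and chance marks about 1 set in 20.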

How the results depend on the processing

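The difference between chromosome 19 and the rest ran from -0.013 without mPGK-C to 0.13 without mPGK-D over the single replicates and pools left out, and the comparisons of ends, gap borders and strands kept their direction under each alternative run (with 5 pools the exact permutation test cannot go below p = 0.0625, so its p says nothing there). Counts of called reporters stayed within 1.5 times, including the replicate block (168 higher, 146 lower), and leaving out a replicate was not run for that test, since 1 RNA against 1 DNA count has no residual degrees of freedom. Windows called higher fell from 3 to 1 without weights. Windows called lower fell from 2 to 1 when the 10% of integrations with the fewest DNA reads were dropped. The same count was reached with all 6 pools required, without weights and with windows moved by 1 Mb. The moved window was chr19:51000001-53000000, which overlaps chr19:50000001-52000000 only in part. Windows of 1 Mb called chr19:22000001-23000000 and chr19:52000001-53000000 lower, neither inside a named lower window. The 2 called higher at 1 Mb lay within chr19:8000001-10000000 and chr19:44000001-46000000, and none within chr19:6000001-8000000. The count of lower windows ran from 0 to 2 with a replicate or pool left out. It was 0 without mPGK-B (limma, 3 at an unadjusted p under 0.05) and without mPGK-E (2 unadjusted). The number of segments, 6, was 2 with the 10% of integrations of fewest DNA reads dropped and with a penalty of 5. It ran from 2 to 6 with a replicate or pool left out, being 2 without mPGK-E and without mPGK-F. Of the lower windows, chr19:50000001-52000000 could not be tested without mPGK-A, mPGK-B, mPGK-D or mPGK-E, nor with all 6 pools required. Otherwise the cause of these changes was not tested. Depth limits weak reporters most, since few RNA reads widen their error, and small regions with fewer than 4 pools could not be tested at all.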
